A study of Homo sapiens with 12 samples.

Results

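The genes described here are 40 members of the NRF2 programme and of the thiol antioxidant system, measured by 3′ end RNA sequencing in OCI-AML3, a long-established line of human leukaemia cells of the myeloid lineage. They are given by symbol, in a list proposed with earlier results of these data known, and each was found as 1 identifier among the 57905 of the count table. SA cells received 500 µM of the compound abbreviated SA for 6 days, and Vehicle cells received its vehicle for 6 days. sgALAS1 cells carried guides against ALAS1, the enzyme of the first step of heme synthesis in most cells, and sgSCR cells carried a scrambled guide, both with 7 days of doxycycline to switch the guides on. Each of the 4 groups had 3 libraries of 4658513 to 7339843 counted reads (median 5573540), of which the 40 genes together took 0.361% to 0.404%. The design asks what blocking heme synthesis, by drug or by guide, does to these cells. The labels do not expand SA, and they leave unsaid whether the replicates came from separate cultures and whether the guide cells were a clone or a pool. The p-values therefore measure the spread between these libraries, which may be technical.

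NRF2, encoded by NFE2L2, is a transcription factor that KEAP1 holds back by marking it for degradation. When reactive cysteines of KEAP1 are modified, NRF2 builds up, pairs with a small MAF protein (MAFF, MAFG or MAFK) and binds antioxidant response elements near genes for detoxification, glutathione synthesis, thioredoxin recycling and NADPH supply. BACH1, a heme-binding repressor, competes for many of the same elements and leaves them when heme binds it. In myeloid cells the thiol enzymes also protect against the peroxides that phagocytes make.

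The core of the antioxidant response element can be written TGACNNNGC, and it was searched on both strands in RefSeq promoter windows (GRCh38.p14, 250 bases before to 50 after a gene's start). Of the 40 members 31 had a window, and 11 of those 31 genes (35.5%) held a match, against 4384 of all 27305 genes with a window (16.1%). The matches lay in EPHX1, ME1, MGST1 and PGD, in CBR1, GCLM, GSTP1, KEAP1, MAFF, PIR and TXNRD1. The version TGACTCAGC, which contains the AP-1 site TGACTCA, stood in ME1, GSTP1 and PIR. The 150 bases before the start are shown 5′ to 3′ on the gene's strand for 6 members that behaved differently in the cells, with matches on either strand in capitals. ME1 (chr6:83431052-83431201, minus strand) and EPHX1 (chr1:225825204-225825353, plus strand) were called higher in at least 1 arm. GSTP1 (chr11:67583662-67583811, plus strand), GCLM (chr1:93909431-93909580, minus strand) and TXNRD1 (chr12:104215629-104215778, plus strand) carry a match and were called in neither arm. NQO1 (chr16:69726561-69726710, minus strand) had the largest change of the members and no match in this window.
ME1: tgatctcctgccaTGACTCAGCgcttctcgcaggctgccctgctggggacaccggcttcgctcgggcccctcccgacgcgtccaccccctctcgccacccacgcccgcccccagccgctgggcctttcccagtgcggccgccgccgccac
EPHX1: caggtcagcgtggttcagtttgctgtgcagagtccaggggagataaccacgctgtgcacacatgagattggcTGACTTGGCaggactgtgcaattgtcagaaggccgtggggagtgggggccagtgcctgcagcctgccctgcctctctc
GSTP1: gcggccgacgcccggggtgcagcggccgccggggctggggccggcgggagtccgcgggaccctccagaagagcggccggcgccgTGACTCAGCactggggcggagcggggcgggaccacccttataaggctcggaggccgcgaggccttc
GCLM: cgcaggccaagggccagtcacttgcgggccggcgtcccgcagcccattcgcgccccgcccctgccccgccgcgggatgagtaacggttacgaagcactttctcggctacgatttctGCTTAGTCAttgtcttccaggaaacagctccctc
TXNRD1: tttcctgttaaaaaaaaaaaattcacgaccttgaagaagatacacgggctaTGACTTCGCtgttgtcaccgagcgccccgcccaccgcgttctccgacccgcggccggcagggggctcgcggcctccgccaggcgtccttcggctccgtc
NQO1: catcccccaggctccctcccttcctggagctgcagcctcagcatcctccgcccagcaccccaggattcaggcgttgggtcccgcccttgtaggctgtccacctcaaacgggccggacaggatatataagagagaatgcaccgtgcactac
ME1 and GSTP1 held the identical letters TGACTCAGC, 137 and 66 bases before the start, and ME1 was called higher with SA while GSTP1 was called in neither arm. A match is a description of the letters and not a binding site, and the NQO1 window does not cover sequence farther upstream.

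ALAS1 itself was read in every library first. It had 106.1, 101.9 and 111.1 CPM (the read count per 1e+06 reads of the library, after TMM scaling) in SA libraries, against 37.5, 36.4 and 31.1 CPM in Vehicle libraries. It had 26.2, 26.3 and 27.3 CPM in sgALAS1 libraries, against 38.6, 41.9 and 37.4 CPM in sgSCR libraries. The transcript was therefore higher with SA (log2 fold change 1.60, adjusted p = 1.36e-09) and lower with the guide (-0.56, adjusted p = 0.00777, but 0.0503 without sgSCR replicate 2). A 3′ end count outside the guide's cut is no check of the edit itself, and the labels do not place the cut. The libraries were myeloid by summed markers, at 1749 to 3261 CPM for 10 myeloid markers. The 12 erythroid or megakaryocyte markers summed to 4.74 to 14.0 CPM. Not every myeloid marker was high: in group means MPO had 1.71 to 3.78 CPM and ANPEP 1.22 to 6.20 CPM. EPOR, of the erythroid list, had 5.31 to 11.4 CPM. No read in any library was found for 6 of the 12 erythroid or megakaryocyte markers and 2 of 8 lymphoid markers. The lymphoid sum was 5.05 to 9.35 CPM in SA libraries against 21.7 to 24.1 CPM in Vehicle libraries, and 0.154 to 1.82 CPM in sgALAS1 libraries against 13.2 to 14.7 CPM in sgSCR libraries. CD3D fell in both arms and NKG7 with the guide. Summed markers of mature monocytes and granulocytes moved with both treatments, at 1351 to 1425 CPM in SA libraries against 641 to 775 CPM in Vehicle libraries, and at 933 to 1082.5 CPM in sgALAS1 libraries against 375 to 446 CPM in sgSCR libraries. Of the 9 such markers tested, 8 were higher with SA and 7 with the ALAS1 guide. The part of any marker list in the changes below was not tested. In bulk RNA, fewer cells of a type and less RNA per cell cannot be told apart.

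Of the 39 members tested, 12 were called in at least 1 arm, 7 of them higher and 5 lower. With SA, 6 members were higher and 3 lower of 39 tested, by edgeR's quasi-likelihood test with Benjamini-Hochberg adjustment over all 13832 tested genes at 0.05. Of all tested genes 4.83% were called higher with SA and 6.24% lower (11.1% in either direction). With the ALAS1 guide, 4 members were higher and 4 lower of 39, against 4.88% of all tested genes higher and 6.85% lower (11.7% in either direction). The share of members called in either direction was 23.1% with SA and 20.5% with the guide. The share of members called higher was 15.4% with SA and 10.3% with the guide; the shares called lower were 7.69% and 10.3%. The members' median log2 fold change was 0.06 with SA and 0.02 with the guide, beside -0.01 and -0.003 over all tested genes. NQO1, MGST1 and EPHX1 rose in both arms, PRDX3 and PRDX4 fell in both, and 27 tested members passed in neither. Without regard to the test, all 3 SA libraries were above all 3 Vehicle libraries for 8 members and below for 5, where 12.6% and 14.8% of all tested genes were so. For sgALAS1 against sgSCR it was 7 above and 9 below, beside 13.6% and 15.5%, and for sgSCR against Vehicle 5 above and 1 below, beside 8.42% and 8.73%. Of the calls, 3 of 9 with SA (NQO1, MGST1, ME1) and 2 of 8 with the guide (NQO1, MGST1) held whichever library was left out and under every other setting tried, sgSCR in place of Vehicle included for the SA calls.

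**Figure D1:**
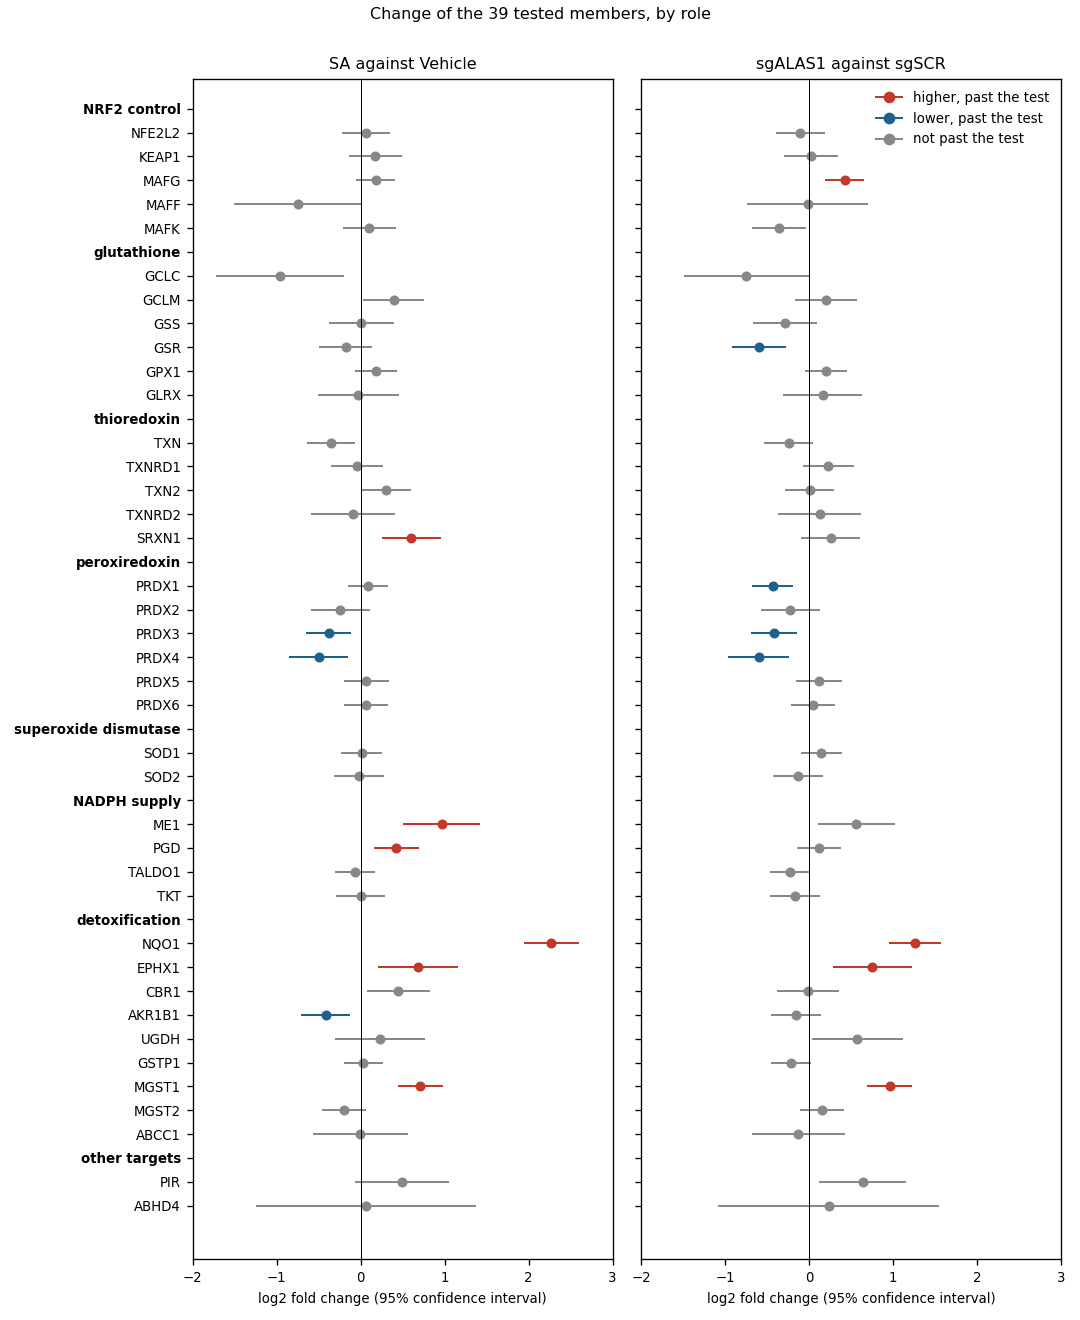
Change of each of the 39 tested members, grouped by role, as log2 fold change with its 95% confidence interval (x axis), for SA against Vehicle (left) and sgALAS1 against sgSCR (right). Red members were higher and blue ones lower past an adjusted p of 0.05; NQO1 stands apart on the right of both panels at 2.27 and 1.26, and most others lie near 0.

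Transcripts of NRF2 itself and of its repressor did not pass in either arm. NFE2L2, which encodes NRF2, had 76.7, 66.1 and 71.5 CPM in SA libraries, against 73.4, 68.7 and 62.5 CPM in Vehicle libraries. Its 3 sgALAS1 libraries had 59.7, 49.8 and 67.8 CPM, against 63.7, 64.4 and 62.5 CPM in sgSCR libraries. The groups overlapped in both arms. The log2 fold change of NFE2L2 was 0.07 with SA (95% interval -0.21 to 0.34, adjusted p = 0.828) and -0.11 with the guide (-0.39 to 0.17, adjusted p = 0.696). KEAP1, the adaptor that targets NRF2 for degradation, had 53.4, 64.1 and 73.0 CPM in SA libraries, against 61.7, 54.2 and 52.9 CPM in Vehicle libraries. It had 52.6, 51.8 and 45.0 CPM in sgALAS1 libraries, against 58.8, 42.4 and 46.8 CPM in sgSCR libraries. These groups overlapped too, with log2 fold changes of 0.18 (-0.13 to 0.48, adjusted p = 0.519) and 0.02 (-0.29 to 0.33, adjusted p = 0.959). NRF2 is controlled mainly at the level of its protein, which was not measured.

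Among the small MAF partners MAFG passed, with the guide. It had 287.1, 270.2 and 275.9 CPM in sgALAS1 libraries, against 201.2, 204.3 and 215.4 CPM in sgSCR libraries. All sgALAS1 libraries were above all sgSCR libraries, with a log2 fold change of 0.42 ± 0.11 (SE, n = 3 each, edgeR adjusted p = 0.00793; 0.0502 without sgALAS1 replicate 1). With SA it had 255.9, 223 and 250 CPM, against 215.9, 229.5 and 199.4 CPM in Vehicle libraries, and those groups overlapped. The difference between the arms did not pass for MAFG (log2 0.25, adjusted p = 0.556), so its change is not shown to be particular to the guide. MAFK had -0.36 with the guide (adjusted p = 0.126). Its row shared reads with TMEM184A on the opposite strand, whose count was 95.1% to 100% of MAFK's in each library, so the 2 genes could not be separated. MAFF was low, at 3.30 to 11.1 CPM in the 12 libraries, with a log2 fold change of -0.75 with SA (95% interval -1.49 to -0.003, adjusted p = 0.203).

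Of the 9 detoxification members, 3 rose with SA and 3 with the guide, and 1 fell with SA. NQO1 (ENSG00000181019, chromosome 16), a quinone reductase that is the usual reporter of NRF2 activity, had 113.7, 123 and 114.8 CPM in SA libraries, against 26.8, 17.3 and 28.7 CPM in Vehicle libraries. It had 109.7, 121.8 and 131.9 CPM in sgALAS1 libraries, against 56.2, 46.4 and 49.3 CPM in sgSCR libraries. Every treated library was above every control library, and the SA and sgALAS1 libraries covered the same range. NQO1 rose 4.82-fold with SA (log2 2.27 ± 0.15, SE, n = 3 each, edgeR adjusted p = 1.68e-11) and 2.39-fold with the guide (log2 1.26 ± 0.15, adjusted p = 2.08e-07). The log2 change ranged from 2.08 to 2.40 with SA and from 1.21 to 1.34 with the guide when single libraries were left out.

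The 2 arms differed for NQO1. Its treated means were 117 CPM with SA and 121 CPM with the guide, and its control means were 24.2 and 50.6 CPM. The guide's effect was smaller than the drug's by 1.01 ± 0.21 on the log2 scale (difference -1.01, edgeR adjusted p = 0.00788), and NQO1 was the only member for which edgeR called a difference, where 1.19% of all tested genes were called (0.759% lower). At an unadjusted p of 0.05, 3 members differed, all lower, and DESeq2 called 2, NQO1 and PRDX1 (adjusted p = 0.0346 for PRDX1 by DESeq2, 0.105 by edgeR). The share of all tested genes at that unadjusted cut is not given, here or for sgSCR against Vehicle below. The DESeq2 share for the difference is not given either, so these counts are no result about the members. The sgSCR libraries averaged 50.6 ± 5.0 CPM of NQO1 and the Vehicle libraries 24.2 ± 6.11 CPM (SD, n = 3 each), a log2 difference of 1.06 ± 0.16 (edgeR adjusted p = 1.68e-04). NQO1 was also the only member called between sgSCR and Vehicle, where 1.43% of all tested genes were called (0.470% higher); 6 members had an unadjusted p under 0.05 there, and DESeq2 called NQO1 alone. Guide, transduction, doxycycline and days of culture cannot be told apart in that contrast. It shares the Vehicle libraries with the SA effect, so the 2 values are not independent. Set against sgSCR in place of Vehicle, SA cells still had more NQO1, by 1.21 on the log2 scale (adjusted p = 7.34e-07).

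MGST1, a membrane-bound glutathione transferase and peroxidase, also rose in both arms. It had 158.1, 161.2 and 155.8 CPM in SA libraries, against 84.4, 95.6 and 110.4 CPM in Vehicle libraries. It had 214.1, 243.7 and 196.6 CPM in sgALAS1 libraries, against 120.7, 117.8 and 98.5 CPM in sgSCR libraries. The groups were apart in both arms, with log2 fold changes of 0.71 ± 0.13 with SA (SE, n = 3 each, edgeR adjusted p = 2.13e-04) and 0.96 ± 0.12 with the guide (adjusted p = 1.55e-06). EPHX1, which hydrolyses reactive epoxides, was far less abundant by read count. It had 15, 17.1 and 23.7 CPM in SA libraries, against 13.4, 12 and 9.38 CPM in Vehicle libraries. It had 21.6, 21.4 and 22.4 CPM in sgALAS1 libraries, against 11.2, 15.8 and 11.9 CPM in sgSCR libraries. No library of one group reached the other, and the log2 fold changes were 0.68 ± 0.23 (edgeR adjusted p = 0.0489) and 0.75 ± 0.22 (adjusted p = 0.0257). The EPHX1 call with SA was lost without Vehicle replicate 2 or 3 or SA replicate 2 or 3 (adjusted p up to 0.295), and also with library totals alone, no filter or the compared groups alone (0.0692 to 0.09); the call with the guide was lost without sgSCR replicate 1 or 3 or any 1 sgALAS1 library (up to 0.115). Against sgSCR in place of Vehicle, the EPHX1 call with SA was lost too. The EPHX1 gene overlaps TMEM63A on the opposite strand, which had 179% to 270% of its reads and log2 fold changes of 0.50 and 0.60 in the 2 arms.

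Other detoxification members went down or did not pass. AKR1B1, aldose reductase, had 64.3, 63.5 and 56.7 CPM in SA libraries, against 83.4, 76.2 and 86.7 CPM in Vehicle libraries. Each SA library lay below each Vehicle library (log2 -0.42 ± 0.14, SE, n = 3 each, edgeR adjusted p = 0.0474), yet leaving out any 1 of the 6 libraries lost the call (adjusted p 0.0615 to 0.192), as did RLE scaling, no filter or the compared groups alone (0.0535 to 0.063). Against sgSCR, the AKR1B1 difference of SA cells was -0.07 (adjusted p = 0.807). With the guide, AKR1B1 had 55.9, 58.9 and 58.7 CPM, against 50.6, 70.2 and 71.9 CPM in sgSCR libraries, and the groups overlapped. CBR1, a carbonyl reductase, averaged 52.8 ± 6.33 CPM in SA and 38.5 ± 7.17 CPM in Vehicle libraries (SD, n = 3 each; log2 0.45, edgeR adjusted p = 0.0982). GSTP1, a soluble glutathione transferase, held the same motif letters as ME1 and averaged 328.5 ± 9.44 CPM in SA libraries and 320.9 ± 40.3 CPM in Vehicle libraries (log2 0.03, 95% interval -0.19 to 0.25). It averaged 314.3 ± 4.48 CPM in sgALAS1 libraries and 365.4 ± 10.2 CPM in sgSCR libraries (log2 -0.22, adjusted p = 0.21). GSTP1, GCLM and TXNRD1 are given in detail because their promoters are shown, a choice made with their values known. The conjugating enzymes and exporter UGDH, MGST2 and ABCC1 did not pass in either arm.

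**Figure D2:**
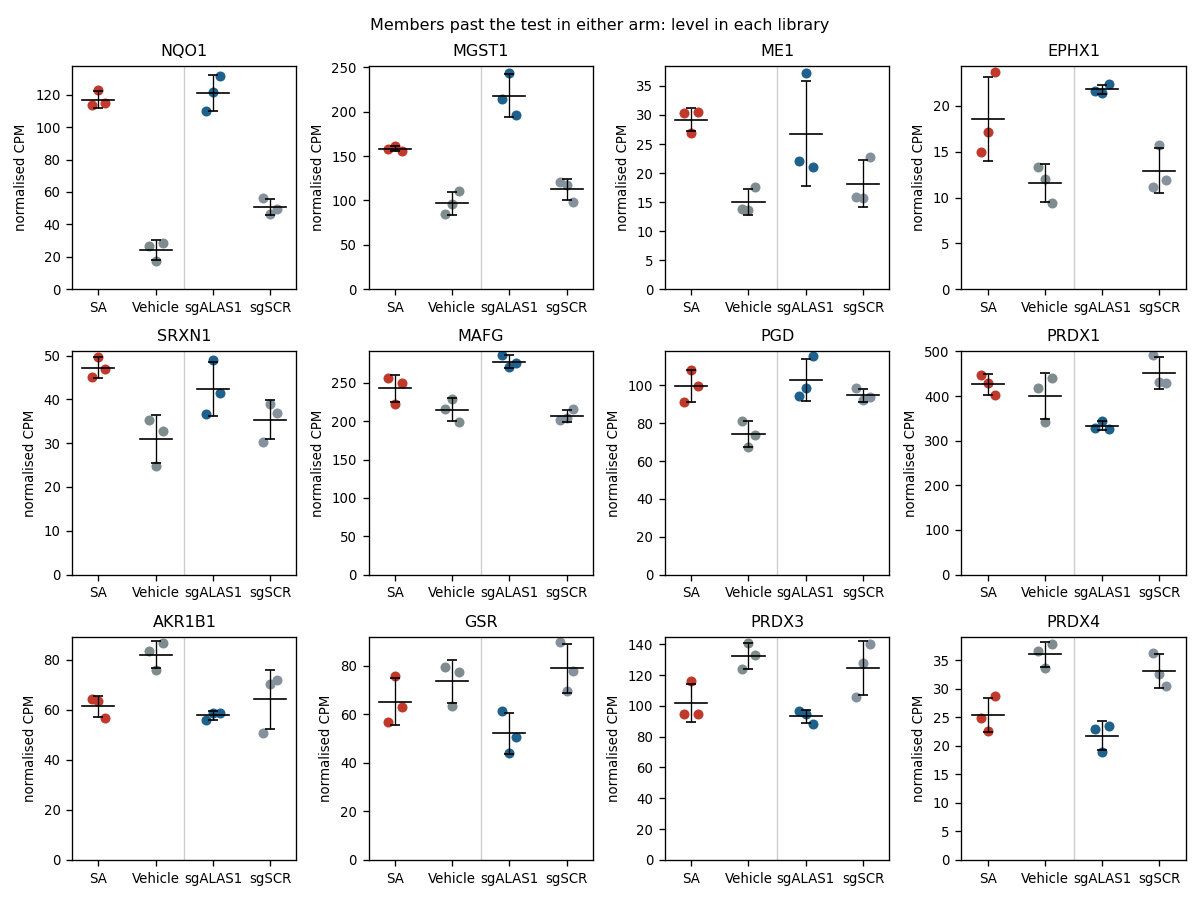
Normalised CPM in each library (points) for the 12 members past the test in either arm, with the mean (wide bar) and SD (error bar) of the 3 libraries in SA, Vehicle, sgALAS1 and sgSCR; each y axis starts at 0. SA and sgALAS1 reach nearly the same NQO1 level, 117 and 121 CPM, while sgSCR and Vehicle start from 50.6 and 24.2 CPM.

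Of the 4 members that supply NADPH, the electron donor of the thiol systems, ME1 and PGD rose with SA. ME1, the cytosolic malic enzyme, had 30.3, 26.9 and 30.5 CPM in SA libraries, against 13.8, 13.7 and 17.5 CPM in Vehicle libraries. The groups were apart, at 1.95-fold (log2 0.96 ± 0.22, SE, n = 3 each, edgeR adjusted p = 0.00336). ME1 had 22.1, 37.3 and 21.1 CPM in sgALAS1 libraries, against 15.9, 15.8 and 22.8 CPM in sgSCR libraries. There the groups overlapped and replicate 2 of sgALAS1 was highest (log2 0.56, adjusted p = 0.0944; 0.0441 without sgSCR replicate 3). PGD, of the oxidative pentose phosphate pathway, had 91.3, 108 and 99.5 CPM in SA libraries, against 81.2, 67.5 and 73.6 CPM in Vehicle libraries. These did not overlap (log2 0.43 ± 0.13, edgeR adjusted p = 0.0247), but the call was lost without replicate 2 or 3 of either group (adjusted p up to 0.126), with library totals alone (0.0561) and with no filter (0.0576). PGD had 94.5, 98.5 and 115.7 CPM in sgALAS1 libraries, against 98.4, 92.1 and 93.7 CPM in sgSCR libraries, and SA cells differed from sgSCR by only 0.07 (adjusted p = 0.762). TALDO1 and TKT, of the non-oxidative branch, did not pass in either arm, with log2 fold changes of -0.07 to 0.0002 with SA.

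The glutathione members showed no joint rise. Glutathione is made by glutamate-cysteine ligase, whose catalytic subunit is GCLC and whose modifier is GCLM, and then by GSS. GCLC had 2.33, 4.18 and 4.38 CPM in SA libraries, against 7.72, 5.75 and 7.79 CPM in Vehicle libraries. It had 5.25, 4.91 and 3.77 CPM in sgALAS1 libraries, against 10.2, 7.07 and 6.45 CPM in sgSCR libraries. Every treated library was below every control library, but counts were low and neither difference passed (log2 -0.96 ± 0.37, edgeR adjusted p = 0.0928, and -0.75 ± 0.36, adjusted p = 0.191; n = 3 each). GCLM had 40.2, 35.6 and 33.7 CPM in SA libraries, against 26.1, 23.9 and 33.6 CPM in Vehicle libraries, with a log2 fold change of 0.39 (95% interval 0.04 to 0.75, edgeR adjusted p = 0.155). With the guide it averaged 35.3 ± 6.73 CPM, against 30.7 ± 0.88 CPM in sgSCR libraries (log2 0.20, adjusted p = 0.526). The 2 subunits of the same enzyme thus had estimates of opposite sign, neither of them called against its own control. Set against sgSCR in place of Vehicle, SA cells were called lower for GCLC. With SA, edgeR and DESeq2 both called 0 of the 6 glutathione members. An unadjusted p under 0.05 was seen for 2, 1 higher and 1 lower, and the share of all tested genes at that cut is not given.

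GSR, which reduces oxidised glutathione, was the glutathione member that fell with the guide. It had 61.3, 44.2 and 50.8 CPM in sgALAS1 libraries, against 89.6, 69.6 and 77.7 CPM in sgSCR libraries. The groups were apart (log2 -0.60 ± 0.15, SE, n = 3 each, edgeR adjusted p = 0.00755; up to 0.061 without sgSCR replicate 1 or sgALAS1 replicate 2). With SA, GSR had 56.7, 75.8 and 62.9 CPM, against 79.6, 63.3 and 77.5 CPM in Vehicle libraries, and the groups overlapped. GSR lies on chromosome 8, whose 471 tested genes had a median log2 fold change of -0.34 with the guide and -0.25 with SA, while the median over all genes was near 0. The part of that shift in the GSR change was not tested. GPX1, the selenium-dependent peroxidase, was the most abundant glutathione member by reads at 284.8 to 357.7 CPM in group means, and it passed in neither arm, as did GSS and GLRX.

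In the thioredoxin system SRXN1 alone passed, with SA. SRXN1, sulfiredoxin, repairs over-oxidised peroxiredoxins. It had 45.1, 49.7 and 46.9 CPM in SA libraries, against 35.3, 24.9 and 32.7 CPM in Vehicle libraries. The groups did not overlap (log2 0.61 ± 0.16, SE, n = 3 each, edgeR adjusted p = 0.0147), and the call was lost without replicate 2 of either group (adjusted p up to 0.116). This call was also lost with sgSCR in place of Vehicle. SRXN1 had 36.6, 48.9 and 41.4 CPM in sgALAS1 libraries, against 30.3, 38.9 and 36.9 CPM in sgSCR libraries, with overlap (log2 0.25). Its row and that of AL121758.1 on the same strand held equal counts in 11 of 12 libraries, so they cannot be told apart. TXN, thioredoxin, had 155.2, 167.7 and 131.5 CPM in SA libraries, against 170.2, 204.1 and 206.2 CPM in Vehicle libraries (log2 -0.35, adjusted p = 0.0942; 0.044 without Vehicle replicate 1). All SA libraries were below all Vehicle libraries. TXNRD1, the cytosolic thioredoxin reductase, had 50.5, 54.5 and 41.2 CPM in SA libraries, against 43.6, 54.0 and 53.3 CPM in Vehicle libraries. It had 52.9, 60.5 and 59.8 CPM in sgALAS1 libraries, against 48.4, 49.0 and 50.4 CPM in sgSCR libraries. The SA and Vehicle ranges overlapped (log2 -0.05, 95% interval -0.34 to 0.25), and all sgALAS1 libraries were above sgSCR without passing (log2 0.23, -0.07 to 0.52, edgeR adjusted p = 0.353). The mitochondrial pair TXN2 and TXNRD2 did not pass.

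The peroxiredoxins, which use thioredoxin to reduce peroxides, moved down where they were called. PRDX3, the mitochondrial member, had 95, 116 and 94.5 CPM in SA libraries, against 124.1, 141 and 132.7 CPM in Vehicle libraries. It had 96.6, 94.7 and 88.2 CPM in sgALAS1 libraries, against 105.6, 127.9 and 140.4 CPM in sgSCR libraries. No ranges overlapped, and PRDX3 fell by 0.38 ± 0.13 with SA and by 0.42 ± 0.13 with the guide on the log2 scale (SE, n = 3 each, edgeR adjusted p = 0.0481 and 0.0274). PRDX4, the member of the endoplasmic reticulum, had 24.9, 22.7 and 28.7 CPM in SA libraries, against 36.6, 33.7 and 37.9 CPM in Vehicle libraries. It had 23.0, 18.9 and 23.5 CPM in sgALAS1 libraries, against 36.3, 32.6 and 30.4 CPM in sgSCR libraries. Again the groups were apart, and PRDX4 fell by 0.50 ± 0.17 with SA and by 0.60 ± 0.17 with the guide (edgeR adjusted p = 0.0498 and 0.0177). These calls sat near the threshold, and both SA calls were also lost with RLE scaling, no filter or the compared groups alone (adjusted p 0.0546 to 0.0979). Both SA calls were lost with sgSCR in place of Vehicle as well. For PRDX4 the SA call was lost without any 1 of the 6 libraries (adjusted p up to 0.155), and the guide call without sgSCR replicate 1 or 2 or sgALAS1 replicate 2 (up to 0.0905). For PRDX3 the SA call was lost without Vehicle replicate 2 or 3 or SA replicate 1 or 3 (up to 0.199), and the guide call without sgSCR replicate 2 or 3 or any 1 sgALAS1 library (up to 0.158).

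PRDX1, the abundant cytosolic peroxiredoxin and a known NRF2 target, fell with the guide. It had 327.7, 344.5 and 327.1 CPM in sgALAS1 libraries, against 492, 431.5 and 429.7 CPM in sgSCR libraries. The groups were clearly apart (log2 -0.44 ± 0.11, SE, n = 3 each, edgeR adjusted p = 0.00815; 0.063 without sgSCR replicate 1). With SA it had 447.8, 429.5 and 401.6 CPM, against 417.2, 341.4 and 441.2 CPM in Vehicle libraries, and the groups overlapped. The difference between the arms was -0.53 (edgeR adjusted p = 0.105). MMACHC on the opposite strand had 51.3% to 62.4% as many reads as PRDX1 and a log2 fold change of -0.53 with the guide, so the 2 rows may share reads. PRDX2, PRDX5 and PRDX6 did not pass in either arm, with log2 fold changes of -0.24 to 0.11. PRDX2 likewise shared a place with an opposite-strand identifier, AC018761.2, at 87.3% to 95.3% of its reads. The superoxide dismutases stayed near their controls: SOD1 averaged 232.6 ± 21.4 CPM in SA and 230.6 ± 16.3 CPM in Vehicle libraries, and 261.8 ± 28.5 CPM in sgALAS1 and 237 ± 16.0 CPM in sgSCR libraries (SD, n = 3 each). SOD2, the mitochondrial enzyme, lay between 44.6 and 52.8 CPM in its 4 group means, and edgeR and DESeq2 called neither dismutase in either arm, with unadjusted p over 0.05 for both. SOD2 and GLRX overlap WTAP and RHOBTB3 on the opposite strand, which had 155% and 126% of their reads over all libraries.

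Of the remaining listed targets, PIR, an iron-binding nuclear protein, had 15, 19.6 and 16.8 CPM in sgALAS1 libraries, against 11.2, 10.3 and 11.6 CPM in sgSCR libraries. It had 6.80, 10.3 and 9.08 CPM in SA libraries, against 5.38, 6.94 and 6.37 CPM in Vehicle libraries. All sgALAS1 libraries were above all sgSCR libraries, the SA and Vehicle ranges overlapped slightly, and neither difference passed (log2 0.64 ± 0.25, edgeR adjusted p = 0.0933, and 0.49 ± 0.27, adjusted p = 0.259; n = 3 each). ABHD4 was close to 2 CPM in every group. OSGIN1, an NRF2-induced growth inhibitor, had 42 reads in all 12 libraries and was not tested; its highest library was an SA one at 1.78 CPM.

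A further list of 24 genes linked to NRF2 or BACH1, of which 18 were tested, covers their neighbours in the pathway. With SA 9 of the 18 were higher and 2 lower; with the guide 10 were higher and 1 lower, with median log2 fold changes of 0.53 and 0.76. Over all tested genes 4.83% were called higher and 6.24% lower with SA, and 4.88% and 6.85% with the guide. This list was drawn up with earlier results of these data known, so its counts are a description. HMOX1, which degrades heme and is a classical BACH1-repressed gene, had 22.0, 33.6 and 33.1 CPM in SA libraries, against 2.90, 1.69 and 2.30 CPM in Vehicle libraries. It had 6.17, 5.09 and 14.6 CPM in sgALAS1 libraries, against 1.59, 1.29 and 1.32 CPM in sgSCR libraries. All treated libraries were above their controls (log2 3.66 with SA, adjusted p = 1.76e-08, and 2.58 with the guide, adjusted p = 3.49e-05), with sgALAS1 replicate 3 the highest of its group. The ferritin genes FTH1 and FTL, which store iron, rose in both arms: FTH1 by 0.91 with SA and 0.87 with the guide, FTL by 0.78 and 0.45 on the log2 scale. Against sgSCR in place of Vehicle, the FTL value of SA cells was 0.24 (adjusted p = 0.136) and that of FTH1 0.89. AKR1C3, a NADPH-dependent ketosteroid reductase, rose by 2.28 and 2.13, but against sgSCR its SA value was 0.45 (adjusted p = 0.321). AKR1C1 to AKR1C3 are similar in sequence, so reads may be split between them. BLVRB, a biliverdin and flavin reductase, rose by 0.95 with the guide (adjusted p = 0.0019).

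Fewer genes of that list fell. SLC7A11, the cystine transporter that feeds glutathione synthesis, had 10.5, 20.5 and 17.7 CPM in SA libraries, against 41.1, 77.5 and 19.3 CPM in Vehicle libraries. It had 10.8, 6.72 and 14.6 CPM in sgALAS1 libraries, against 8.76, 14.5 and 20.0 CPM in sgSCR libraries. The SA and Vehicle ranges overlapped at Vehicle replicate 3, and Vehicle replicate 2 was far the highest of the 12. SLC7A11 fell by 1.5 with SA (edgeR adjusted p = 0.00281), but without Vehicle replicate 2 the value was -0.91 (adjusted p = 0.094), and against sgSCR it was 0.16. With the guide SLC7A11 had -0.45 (adjusted p = 0.494), and the difference between arms did not pass (adjusted p = 0.392). AKR1A1, an aldehyde reductase, fell by 0.75 with the guide (adjusted p = 0.00335; 0.0519 without sgSCR replicate 2).

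**Figure D3:**
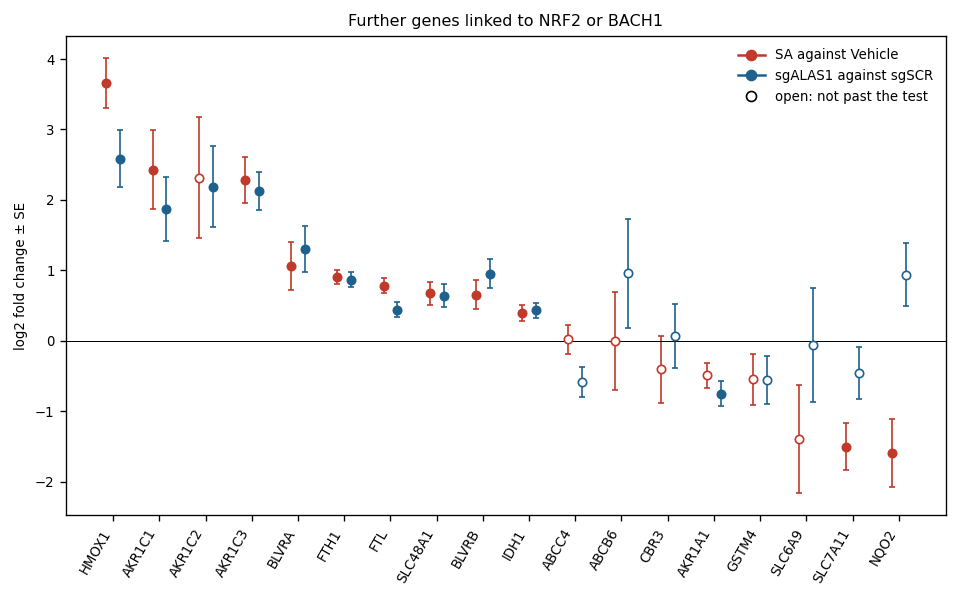
Log2 fold change ± SE (y axis) of the 18 tested genes of the further NRF2 or BACH1 list, in order of the SA value, for SA against Vehicle (red) and sgALAS1 against sgSCR (blue); open points did not pass. HMOX1 is highest in both arms at 3.66 and 2.58, and SLC7A11 and NQO2 are lowest with SA.

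Of 15 tested genes that act on NRF2 or its partners, SESN3, a stress-inducible sestrin, rose in both arms by 1.06 and 1.02. SESN2, its relative, fell by 0.96 with SA, at 74.0, 65.3 and 74.6 CPM in SA libraries, against 176, 167.7 and 72.6 CPM in Vehicle libraries. Vehicle replicate 3 lay within the SA range, and against sgSCR the SESN2 difference of SA cells was 0.17. With the guide, SQSTM1, the autophagy adaptor that can sequester KEAP1, rose by 0.62 (edgeR adjusted p = 0.00354), and NFE2, a relative of NRF2, fell by 2.35 at a level under 6 CPM in both groups (adjusted p = 0.0163; up to 0.0892 without sgSCR replicate 3 or sgALAS1 replicate 1 or 2). BACH1 did not pass in either arm (log2 -0.28, adjusted p = 0.517, and 0.16, adjusted p = 0.753).

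Of 30 further thiol and NADPH genes tested, 2 were higher and 3 lower with SA, and 3 were higher and 1 lower with the guide. These shares, 6.67% higher and 10.0% lower with SA and 10.0% and 3.33% with the guide, lie near the 4.83%, 6.24%, 4.88% and 6.85% of all tested genes, so the genes below are single values and not a result about the list. QSOX1, which forms disulfides in the secretory pathway, rose by 0.94 with SA and 0.61 with the guide. SELENOW, a small selenoprotein, rose by 1.06 and 0.63. LANCL1, which binds glutathione, fell by 1.30 and 1.41, at 4.86, 6.17 and 6.32 CPM in SA libraries against 16.4, 13.2 and 13.3 CPM in Vehicle libraries. Its sgALAS1 libraries had 7.41, 5.27 and 9.09 CPM, against 20.5, 22.8 and 14.4 CPM in sgSCR libraries. LANCL1 was apart from its controls in both arms, and its calls held with every library left out in turn. With SA the thiol peroxidase GPX7 fell by 1.94 at a low level. It had 2.53, 3.18 and 0.973 CPM in SA libraries, against 8.41, 7.28 and 9.56 CPM in Vehicle libraries. SELENOH fell by 0.38 with SA, only near the threshold (edgeR adjusted p = 0.0496, and up to 0.286 without Vehicle replicate 2 or 3 or SA replicate 1 or 3). The SELENOH call was also lost with RLE scaling, no filter, the compared groups alone or sgSCR in place of Vehicle. With the guide NXN, nucleoredoxin, rose by 0.78 (adjusted p = 0.00781; 0.0525 without sgSCR replicate 3), and SELENOW lost its call without sgSCR replicate 2 or sgALAS1 replicate 3 (up to 0.107).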

How the data were processed

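The deposited values were raw counts of reads per Ensembl gene, which the authors made from 3′ mRNA libraries (QuantSeq, single-end, NextSeq 500, per the labels' protocols). The submitters' processing notes name bcl2fastq 2.17.1.14, cutadapt 1.14, HISAT2 2.0.4, featureCounts of Subread 2.0.0, edgeR 3.34.0, limma 3.48.3 and build hg19; for strand setting and annotation release, nothing was stated (not given in the sources used here). Table columns were tied to samples by library name. Of 57905 identifiers, 51996 took a symbol from the current gene table and 342 from GENCODE 29; the 5567 without a name held 6.18% to 11.4% of reads and stayed in the fit.

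Counts of all 12 libraries were fitted with edgeR 4.0.16 in R 4.3.3: filterByExpr by group (minimum count 10, 13832 genes kept), TMM scaling, a mean per group, and glmQLFTest with Benjamini-Hochberg adjustment at 0.05. The SE is the log2 fold change over the root of F. The fit was tested on simulated data. There it called 42.6% of 1.5-fold changes in the SA contrast and 34.4% in the guide contrast. For 2-fold changes it called 80.3% and 91.8%, and for 4-fold changes 98.7% in each. A change of about 1.5-fold can thus often fail to pass. CPM are TMM-scaled and, with 3′ tags, not divided by length. Chromosomes come from the gene tables. Alternatives were DESeq2 1.42.0, RLE or no scaling, no filter, the compared groups alone, each library left out, a replicate block, and sgSCR in place of Vehicle. Promoters are from RefSeq (GRCh38.p14), a different build from the counts, and only their letters were used. Protein sequences were not analysed here.

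Members and lists were chosen with earlier results of these data known, so no test was run over a list. Every member past the threshold in an arm or in the difference was named with each library, as were NFE2L2 and KEAP1, and at most 3 others per comparison by smallest p; HMOX1, SLC7A11, FTH1, FTL and at most 5 called genes per further list were named. Replicate numbers were not used to pair libraries in the main fit. Residuals of same-numbered libraries correlated at -0.0661 to 0.0572 between SA and Vehicle and at -0.0623 to 0.0185 between sgALAS1 and sgSCR. Between sgSCR and Vehicle they correlated at 0.0261 to 0.0917, against -0.134 to 0.0515 for unlike numbers. These values do not settle whether the numbers mark a shared batch, and the replicate block is given below.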

Additional observations from a re-analysis of the deposited data

Results flagged for a closer look

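Among the members, ALAS1 and the further NRF2, thiol and NADPH lists, the effects of the guide and of the drug differed for 3 genes by the test of the difference itself; over all tested genes 164 of 13832 were called. For NQO1 the sgALAS1 effect was lower than the SA effect by a log2 difference of -1.01 (edgeR adjusted p = 0.00788), and between -1.15 and -0.82 with single libraries left out. For ALAS1, the gene the guide targets, the difference was -2.16 (adjusted p = 1.14e-08). For NQO2, a second quinone reductase, it was 2.53 (adjusted p = 0.0497): NQO2 had 5.56, 4.72 and 5.54 CPM in sgALAS1 libraries, against 3.19, 2.57 and 2.48 CPM in sgSCR libraries, and 1.36, 1.79 and 1.30 CPM in SA libraries, against 4.41, 3.89 and 5.13 CPM in Vehicle libraries. The NQO2 difference rests on the threshold: it lost its call without any 1 library except SA replicate 2 (log2 2.41 to 2.68, adjusted p 0.0479 to 0.129), and its SA call was lost without any 1 Vehicle library or SA replicate 1 or 3 (up to 0.0965). The causes were not tested.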

How the results depend on the processing

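With sgSCR in place of Vehicle, SA cells had 3 members higher (NQO1, MGST1 and ME1) and 1 lower. The 1 lower was GCLC, which did not pass against Vehicle. PRDX3, PRDX4 and AKR1B1, called lower against Vehicle, all lost their calls there. The share of all tested genes called in that contrast is not given here. The SA members called lower fell to 0 with RLE scaling, with no filter and with the compared groups alone, and ranged from 0 to 2 with single libraries left out (0 without Vehicle replicate 2 or 3 or SA replicate 1 or 3); those called higher ranged from 3 (without Vehicle replicate 2 or SA replicate 2) to 8 (without Vehicle replicate 1). With the guide, left-out libraries gave 2 to 4 members higher and 1 to 4 lower. DESeq2 called 2 members lower in the difference (1 with each library left out) and 300 genes between sgSCR and Vehicle; no filter gave 277 genes in the difference. Left-out libraries gave 954 to 1595 called genes with SA, 1134 to 1415 with the guide, 109 to 340 for the difference and 84 to 276 between sgSCR and Vehicle, with 1 to 2 members higher in the last. The wider motif TGANNNNGC matched 20 of the 31 members with a window (64.5%), against 12852 of all 27305 genes (47.1%). The replicate block gave 1704 called genes with SA, against 1531 without it, and 1796 with the guide, against 1622; under it EPHX1 lost its SA call (adjusted p = 0.054), NQO2 its difference (0.0587), and TXN gained one (0.0423). The causes were not tested. Of 1901 alternative values for single genes, 1683 kept direction and side of the threshold and 72 changed sign, all of them in genes whose call had not passed or against sgSCR. Against sgSCR the SA values that changed sign were MAFK -0.11, GSS -0.28, PRDX1 -0.0813, PRDX6 -0.0588, SOD1 -0.0278, TKT -0.37, GSTP1 -0.15, PIR -0.33, SLC7A11 0.16, SESN2 0.17, AKR1C2 -0.64. Under other settings they were GSS -0.0482, SOD1 -0.0483, TKT -0.0545, GSTP1 -0.0237, PRDX3 (difference) 0.0187 with library totals alone, GSS -0.0074, SOD1 -0.0014, TKT -0.0151 with no filter, ABCC1 0.0064 with DESeq2, ABCC1 0.0066 with RLE scaling, ABCC1 0.0178, MAFF (guide) 0.0013 with the replicate block, ABCC1 0.0067 with the compared groups alone. With libraries left out, the log2 values that crossed 0 with SA ran MAFK -0.0092 to 0.19, GSS -0.0723 to 0.17, GLRX -0.17 to 0.085, TXNRD1 -0.14 to 0.0696, PRDX1 -0.0119 to 0.17, PRDX5 -0.0172 to 0.18, SOD1 -0.0443 to 0.0898, SOD2 -0.11 to 0.0603, TKT -0.17 to 0.19, GSTP1 -0.0523 to 0.14, ABCC1 -0.15 to 0.27, ABHD4 -0.13 to 0.37; with the guide KEAP1 -0.0689 to 0.16, MAFF -0.33 to 0.24, GLRX -0.05 to 0.42, TXN2 -0.0746 to 0.17, TXNRD2 -0.0724 to 0.33, PRDX6 -0.0815 to 0.18, CBR1 -0.18 to 0.15, ABCC1 -0.38 to 0.0076, ABHD4 -0.0662 to 0.80, SESN2 -0.25 to 0.18; and for the difference EPHX1 -0.065 to 0.28, PRDX3 -0.14 to 0.0667. Depth limits GCLC, MAFF, ABHD4 and OSGIN1, which had under 12 CPM in every library.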

Other observations

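Further genes besides NQO1 separated the control groups, and they were picked out after their values were seen. Of the 18 tested genes linked to NRF2 or BACH1, 2 were called higher in sgSCR and 1 lower. Of all tested genes 0.470% and 0.962% were so called. The 1 lower was SLC7A11 (log2 -1.66, edgeR adjusted p = 0.00522), lost by DESeq2 and without Vehicle replicate 2 or sgSCR replicate 1. Of the 15 genes that act on NRF2 or its partners, 0 were called higher and 1 lower. AKR1C3 had 10.2, 9.16 and 4.30 CPM in sgSCR libraries, against 2.07, 2.54 and 1.95 CPM in Vehicle libraries (log2 1.83 by edgeR). FTL had 2052, 1872 and 1591 CPM in sgSCR libraries, against 1382, 1170 and 1225 CPM in Vehicle libraries (log2 0.55; adjusted p = 0.0536 without sgSCR replicate 1). PIR had 11.2, 10.3 and 11.6 CPM in sgSCR libraries, against 5.38, 6.94 and 6.37 CPM in Vehicle libraries, and did not pass (log2 0.82, adjusted p = 0.124). FTH1 averaged 547.9 ± 22.2 CPM in sgSCR libraries and 540.9 ± 37.9 CPM in Vehicle libraries (SD, n = 3 each).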
